A study of Homo sapiens with 12 samples.

Results

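The genes described here are 9 components of Janus kinase (JAK), signal transducer and activator of transcription (STAT) and interferon regulatory factor (IRF) signalling: JAK1, TYK2, STAT2, STAT3, IRF9, IRF1, IRF3, IRF7 and SOCS1. They were chosen by gene symbol, and all 9 were found among the 60106 genes counted in each library. The study sequenced RNA from 2 established human prostate cancer lines, PC3 and VCaP, 72 hours after transfection with a non-targeting siRNA (NSI) or an siRNA against FOXA1 (siFOXA1), with 3 replicates of each. FOXA1 is a forkhead transcription factor that opens chromatin for nuclear receptors in prostate epithelium. PC3 was grown in RPMI, received 20 nM siRNA and was sequenced from a stranded mRNA kit, and VCaP was grown in DMEM, received 40 nM siRNA and was sequenced from a total RNA kit. Line, dose, medium and kit therefore cannot be told apart in any comparison between the lines. By its title the study asked how FOXA1 affects splicing-related genes and splicing, and the signalling genes are read here from the same libraries.

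In this pathway a cytokine receptor activates the kinases bound to its tail, which phosphorylate STAT proteins. Type I and type III interferons act through JAK1 and TYK2 and join STAT2 and IRF9 into the complex ISGF3, which binds interferon-stimulated response elements (ISRE). STAT dimers formed downstream of interferon gamma or interleukin-6 bind a different element (GAS), and STAT3 is the main transducer of interleukin-6 family cytokines. IRF3 and IRF7 are activated by sensors of foreign nucleic acid and switch on interferon genes, IRF1 drives antigen presentation genes, and SOCS1 is a feedback inhibitor that binds the kinases. These proteins are largely controlled by phosphorylation, which RNA counts do not measure.

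Library totals were 123140099 to 188226483 counts in PC3 and 48187047 to 59839211 in VCaP. Levels are counts scaled by TMM to a common library size (CPM), and the same per kilobase of exon (RPKM) where genes are compared with each other. A gene is said to have risen or fallen when the adjusted p of edgeR's quasi-likelihood test was under 0.05 over all genes tested. The labels do not say that replicates came from separate cultures, so the p-values measure the spread between these libraries. FOXA1 stood at 301.0, 242.1 and 262.7 CPM in the PC3 NSI libraries and at 167.6, 182.7 and 166.8 in siFOXA1, which is 64.2% of the NSI mean (log2 fold change −0.65, standard error (SE) 0.10, adjusted p 0.0022). In VCaP it stood at 447.7, 458.4 and 539.2 CPM in NSI and at 85.8, 73.7 and 83.5 in siFOXA1, which is 16.8% of the NSI mean (log2 fold change −2.60, SE 0.09, adjusted p 1.84e-07). The exact permutation p, two-sided, was 0.1 in each line, the smallest that 3 against 3 allows. The epithelial genes EPCAM, KRT8, KRT18 and CDH1 were above 1 CPM in both lines, while KLK2, KLK3, TMPRSS2 and ERG reached 1 CPM in VCaP and not in PC3.

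In PC3, siFOXA1 libraries held more STAT2, IRF9, IRF1, IRF7 and SOCS1 RNA than NSI libraries. JAK1, TYK2 and IRF3 were not called, and STAT3 was at the limit of detection. In RNA from whole cultures, more responding cells and more RNA per cell cannot be told apart. Of the 8 members tested in PC3, 5 rose and none fell, where 15.0% of all 26435 genes tested rose. The median log2 fold change of the 8 was 1.49, against 0.018 over all genes tested. In VCaP the members split: STAT3, IRF9 and SOCS1 rose, JAK1, TYK2 and IRF1 fell, and STAT2, IRF3 and IRF7 were not called. That is 3 higher and 3 lower of 9, where 22.5% of the 22925 genes tested rose and 23.3% fell, and the members' median was −0.019 against 0.023. The shares among so few genes are descriptions of these 9, which were chosen with earlier results of these data known.

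**Figure D1:**
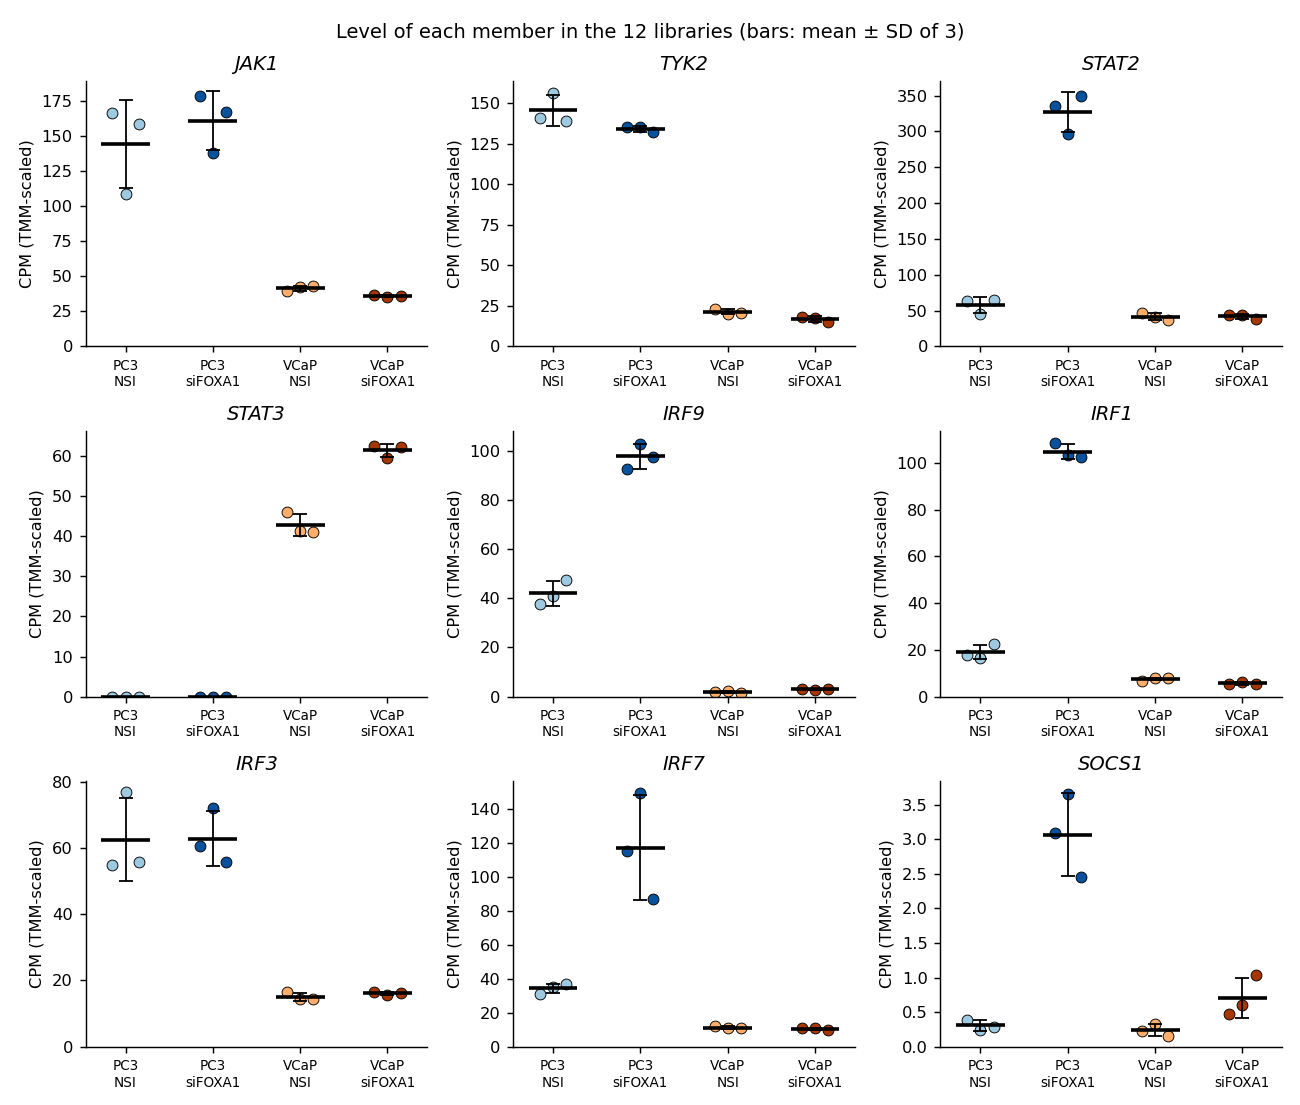
TMM-scaled CPM of each of the 9 genes (y axes, linear and starting at 0, with a separate scale per gene) in the 3 libraries of each group; points are libraries, and bars are the mean ± SD. STAT2, IRF9, IRF1, IRF7 and SOCS1 are higher in all PC3 siFOXA1 libraries than in any PC3 NSI library, and STAT3 lies on the axis in all PC3 libraries.

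Markers of other cell types moved with the PC3 groups. Of 12 leukocyte, fibroblast and endothelial markers, 8 could be tested in PC3 and 6 were higher in siFOXA1, namely COL3A1 (2.29), COL1A2 (1.60), COL1A1 (0.62) and the leukocyte markers PTPRC (2.20), CD14 (0.77) and CD68 (0.73). Their summed level was 53.1 to 54.3 CPM in NSI and 90.2 to 101 in siFOXA1. The leukocyte marker PTPRC was at 0.024 CPM in NSI and 0.110 in siFOXA1, and CD3D and MS4A1 were at 0 in all PC3 siFOXA1 libraries. Their part in the rise of the 5 members, and of their target genes, was not tested. In VCaP the sum was 6.27 to 12.1 CPM in NSI and 6.22 to 11.3 in siFOXA1, with CD3D and NKG7 at 0 in all libraries, 1 marker higher (CD14) and 1 lower (VWF) of 6 tested.

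The receptor-bound kinases come first. JAK1, which serves interferon and interleukin-6 family receptors alike, lies on chromosome 1 (65298912 to 65432187, minus strand, GRCh37, the build of all positions of genes given here). In PC3 it was at 166, 109 and 159 CPM in NSI and at 178, 138 and 167 CPM in siFOXA1. The groups overlapped, and replicate 2 was the lowest in both (log2 fold change 0.15, SE 0.16, adjusted p 0.52). In VCaP it was at 39.5, 42.5 and 42.8 CPM in NSI and at 36.5, 35.3 and 35.9 in siFOXA1. All VCaP siFOXA1 libraries lay below all NSI libraries, by a small margin (log2 fold change −0.24, SE 0.05, adjusted p 0.0054). The call was lost when all 12 libraries shared 1 estimate of the spread (log2 fold change −0.21, adjusted p 0.29).

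TYK2, the partner of JAK1 at the type I interferon receptor, lies on chromosome 19 (10461205 to 10491352, minus strand). In PC3 it was at 141, 157 and 139 CPM in NSI and at 135, 136 and 132 CPM in siFOXA1. The PC3 groups did not overlap, yet the difference did not pass the test (log2 fold change −0.13, SE 0.09, adjusted p 0.32). In VCaP it fell from 23.0, 20.1 and 20.9 CPM to 18.4, 17.5 and 15.2 (log2 fold change −0.36, SE 0.09, adjusted p 0.0092), again without overlap.

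Among the STAT genes, STAT2 (chromosome 12, 56736494 to 56753910, minus strand), the subunit that gives ISGF3 its activation domain, was at 63.2, 45.5 and 65.2 CPM in the PC3 NSI libraries and at 335, 297 and 350 in siFOXA1. The lowest siFOXA1 library was well above the highest NSI library (log2 fold change 2.49, SE 0.14, adjusted p 1.09e-05, 5.61-fold). In VCaP, STAT2 was at 46.1, 41.6 and 37.1 CPM in NSI and at 44.1, 43.5 and 38.2 in siFOXA1. These groups overlapped throughout (log2 fold change −0.019, SE 0.09, adjusted p 0.89).

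STAT3 (chromosome 17, 40465342 to 40540586, minus strand) gave 3, 2 and 3 counts in the PC3 NSI libraries and 2, 1 and 2 in siFOXA1, too few to pass the filter, so its response in PC3 was not tested. In VCaP it was at 46.1, 41.3 and 41.0 CPM in NSI and at 62.6, 59.6 and 62.2 in siFOXA1. It rose without overlap in VCaP (log2 fold change 0.49, SE 0.06, adjusted p 2.1e-04, 1.40-fold). The NSI libraries held 6946 STAT3 counts in VCaP and 8 in PC3, a 2533-fold ratio of scaled levels with a 95% counting interval of 1285 to 5869, which covers counting error only.

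The near absence of STAT3 RNA in PC3 extended to its neighbours. STAT3 sat in a run of 13 consecutive protein-coding genes, from DHX58 to ATP6V0A1 (40253422 to 40674629, 421 kb), that were all under 0.5 CPM in all 6 PC3 libraries, the highest value being 0.369 CPM. In VCaP NSI, 10 of the 13 had a mean of at least 1 CPM, among them KAT2A, RAB5C, STAT5A and STAT5B. The nearest protein-coding gene before the run, ZNF385C, was at 0.669 CPM in PC3 NSI and the nearest after it, NAGLU, at 10.4 CPM. ZNF385C was thus only a little above the limit and was at 0.482 CPM in VCaP NSI. In the same window, 1 other gene of the 33 within 400 kb of STAT3, RAMP2, was also under the limit. PC3 is known as a line that lacks STAT3. DNA copy number was not measured in these files. DHX58, which encodes a relative of the cytosolic RNA sensors, had at most 2 counts in a PC3 library.

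**Figure D2:**
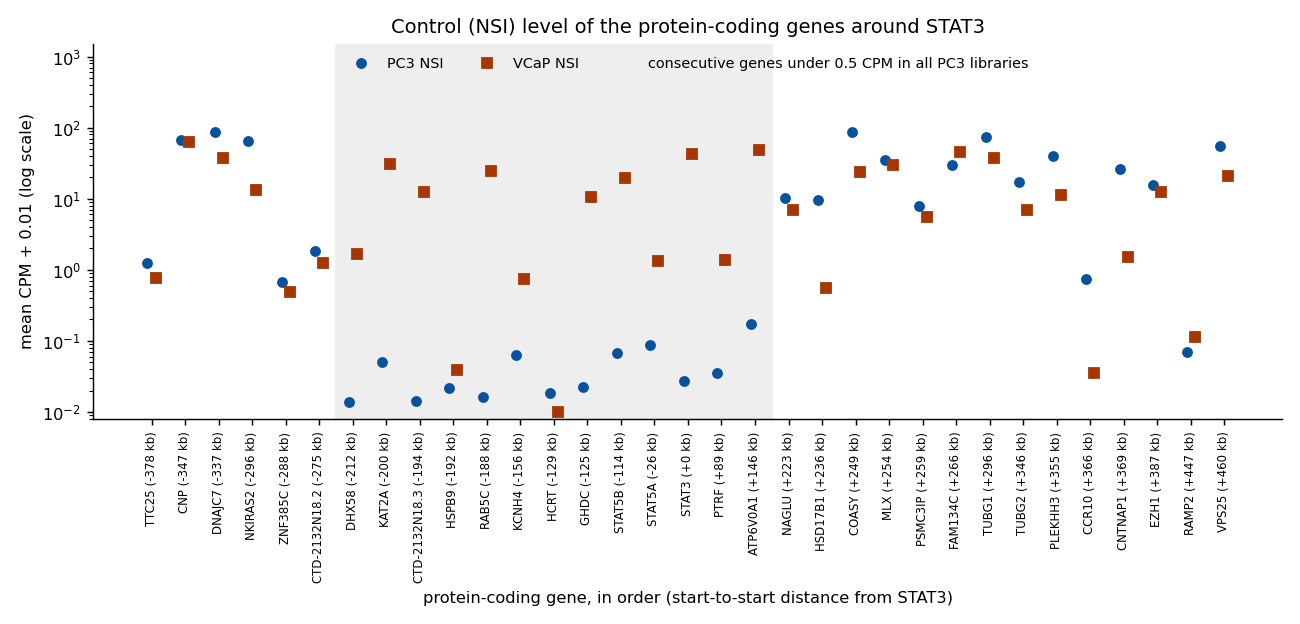
Mean NSI level, as CPM + 0.01 on a log scale (y axis), of the 33 protein-coding genes within 400 kb of STAT3 in chromosomal order (x axis, with the distance of each start from that of STAT3); circles are PC3, squares are VCaP. The shaded run of 13 genes, STAT3 included, is under 0.5 CPM in PC3. In PC3, ZNF385C, whose end lies nearest before the run, is at 0.669 CPM and NAGLU, just after it, at 10.4 CPM. CTD-2132N18.2, which lies within ZNF385C and is plotted next to the run, is at 1.80 CPM in PC3.

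IRF9, the DNA-binding subunit of ISGF3, lies on chromosome 14 (24630262 to 24635774, plus strand). It was at 37.6, 41.0 and 47.5 CPM in PC3 NSI and at 92.6, 103 and 97.7 in siFOXA1, with no overlap (log2 fold change 1.21, SE 0.11, adjusted p 1.3e-04). In VCaP it was low, at 1.85, 2.19 and 1.45 CPM in NSI and 2.96, 2.63 and 3.08 in siFOXA1 (log2 fold change 0.63, SE 0.17, adjusted p 0.0116). Of its exon bases, 93.5% are also annotated to a second protein-coding gene (ENSG00000259529) on the same strand, and shared fragments were divided between them. With both genes' counts summed, an alternative chosen after seeing the data, PC3 gave a log2 fold change of 1.09 (adjusted p 1.8e-04) and VCaP one of 0.23 (adjusted p 0.060), so the PC3 rise held and the VCaP call did not.

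IRF1 (chromosome 5, 131817301 to 131826490, minus strand) moved in opposite directions in the 2 lines. In PC3 it was at 18.0, 16.7 and 22.4 CPM in NSI and at 108, 103 and 103 in siFOXA1 (log2 fold change 2.45, SE 0.12, adjusted p 5.04e-06, 5.46-fold). In VCaP it was at 6.86, 7.97 and 7.81 CPM in NSI and at 5.36, 6.37 and 5.30 in siFOXA1 (log2 fold change −0.44, SE 0.11, adjusted p 0.0090). Neither line's groups overlapped. Of its exon bases, 15.3% are shared with genes on the other strand, which the unstranded PC3 counts cannot separate.

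IRF3 and IRF7, the factors downstream of nucleic acid sensors, differed from each other. IRF3 (chromosome 19, 50162827 to 50169132, minus strand), which is present without stimulation in most cells, was at 54.7, 76.9 and 55.8 CPM in PC3 NSI and at 60.6, 72.0 and 55.8 in siFOXA1. In VCaP it was at 16.4, 14.3 and 14.5 CPM in NSI and at 16.5, 15.5 and 16.3 in siFOXA1. The groups overlapped in both lines. In PC3 the log2 fold change was −0.0054 (SE 0.16, adjusted p 0.98). VCaP gave 0.061 (SE 0.08, adjusted p 0.56). BCL2L12 covers 20.1% of its exon bases on the other strand.

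IRF7 (chromosome 11, 612553 to 615999, minus strand), itself an interferon-induced gene, was at 31.2, 35.0 and 36.6 CPM in PC3 NSI and at 115, 149 and 87.0 in siFOXA1. Its PC3 siFOXA1 libraries ranged widely, with replicate 2 highest, but the lowest stayed above every NSI library (log2 fold change 1.76, SE 0.19, adjusted p 3.6e-04). The VCaP values were 12.0, 10.8 and 10.9 CPM in NSI and 11.0, 11.0 and 9.72 in siFOXA1, with overlap (log2 fold change −0.12, SE 0.09, adjusted p 0.28).

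The inhibitor SOCS1 (chromosome 16, 11348262 to 11350057, minus strand) was the member with the fewest counts apart from STAT3 in PC3. The PC3 NSI libraries held 58, 34 and 54 counts and the siFOXA1 libraries 504, 458 and 412, or 0.390, 0.242 and 0.293 CPM against 3.09, 3.65 and 2.45. Its log2 fold change in PC3 was 3.30 (SE 0.23, adjusted p 3.5e-05, 9.86-fold). In VCaP the counts were 12, 17 and 9 in NSI and 24, 30 and 54 in siFOXA1, or 0.226, 0.332 and 0.155 CPM against 0.480, 0.597 and 1.034. The VCaP groups did not overlap, and replicate 3 of siFOXA1 stood highest (log2 fold change 1.55, SE 0.37, adjusted p 0.0078).

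**Figure D3:**
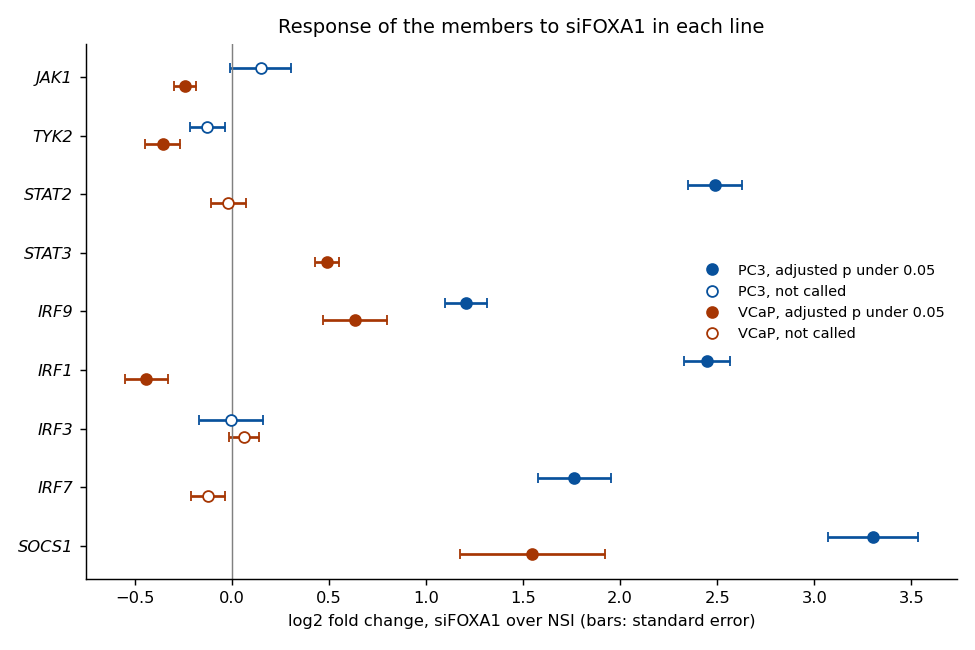
Log2 fold change of siFOXA1 over NSI (x axis) with its standard error for each gene (y axis), in PC3 and in VCaP; filled points have an adjusted p under 0.05, and STAT3 has no PC3 point because it was not tested there. IRF1 lies on opposite sides of 0 in the lines (2.45 in PC3 and −0.44 in VCaP), and STAT2 lies at 2.49 in PC3 and near 0 in VCaP.

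Whether the response itself differed between the lines was tested as the interaction term of a model of the 12 libraries together. It is given as the log2 effect in VCaP less that in PC3. For FOXA1 it was −1.93 (SE 0.15, adjusted p 3.12e-07), so the lines are compared at unequal knockdowns. The term was negative and past the threshold for 5 of 9 members, where 11.0% of the 30425 genes tested were called in that direction. Over all genes, 3427 calls were positive and 3333 negative, against 2643 and 3880 when libraries were scaled by their totals alone. The difference was −2.87 for IRF1 (SE 0.16, adjusted p 1.56e-08), −2.48 for STAT2 (SE 0.18, adjusted p 2.18e-07), −1.86 for IRF7 (SE 0.21, adjusted p 1.32e-05) and −1.72 for SOCS1 (SE 0.47, adjusted p 0.0159).

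IRF9 was the fifth, at −0.55 (SE 0.18, adjusted p 0.0451). Without VCaP NSI replicate 2, IRF9 (−0.41, adjusted p 0.16) and SOCS1 (−1.42, adjusted p 0.089) were no longer called, which left 3 members. IRF9 also missed the threshold without any one of PC3 NSI replicate 1, PC3 siFOXA1 replicate 3, VCaP NSI replicates 1 and 2 or any of the 3 VCaP siFOXA1 libraries, with adjusted p from 0.054 to 0.163 in these 7 fits. With the counts of IRF9 and its overlapping gene summed, the difference was −0.83 (adjusted p 3.8e-04). JAK1 (−0.37, SE 0.19, adjusted p 0.20), TYK2 (−0.21, SE 0.13, adjusted p 0.27) and IRF3 (0.085, SE 0.18, adjusted p 0.83) were not called. With the replicate number as a block in both lines, JAK1 was called (−0.38, adjusted p 0.0109). No value of STAT3 is read here, since PC3 held at most 3 counts.

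Levels before knockdown also differed. In NSI libraries 8 of the 9 members differed between the lines, 7 lower in VCaP and STAT3 higher, where 44.6% of the 28132 genes tested were lower in VCaP and 42.4% higher. Most genes were thus called in this comparison, and kit and strand counting differed with the line. The VCaP minus PC3 log2 difference was −4.52 for IRF9 (SE 0.17, adjusted p 3.26e-10), or −3.27 with the overlapping gene summed, and −2.76 for TYK2 (SE 0.10, adjusted p 3.31e-10). IRF3 (−2.04), JAK1 (−1.79), IRF7 (−1.60) and IRF1 (−1.33) were also lower, with adjusted p of at most 2.53e-06.

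STAT2 differed least among those called, at −0.47 (SE 0.15, adjusted p 0.0105). Its call was lost without PC3 NSI replicate 3 (−0.36, adjusted p 0.051), with protein-coding genes alone (−0.25, adjusted p 0.12) and with upper-quartile scaling (−0.18, adjusted p 0.26), which moved the median of all genes by 0.29. SOCS1 was not called (−0.38, SE 0.36, adjusted p 0.34). FOXA1 itself was higher in VCaP by 0.85 (SE 0.12, adjusted p 4.05e-05).

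Per kilobase of exon, the order of the genes differed between the lines. In PC3 NSI, TYK2 led at 30.2 ± 2.00 RPKM (SD, n = 3), followed by JAK1 at 28.6 ± 6.20, IRF3 at 26.1 ± 5.23, IRF9 at 21.4 ± 2.54, STAT2 at 17.1 ± 3.20 and IRF7 at 16.0 ± 1.29. Each of these overlapped its neighbour in the order. IRF1 followed at 5.02 ± 0.79, then SOCS1 at 0.172 ± 0.042 and STAT3 at 0.0033 ± 0.00060, without overlap.

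In VCaP NSI, STAT2 led at 12.3 ± 1.33 RPKM, then came STAT3 at 8.49 ± 0.56 and JAK1 at 8.24 ± 0.36, which overlapped each other. IRF3 (6.30 ± 0.49), IRF7 (5.26 ± 0.31), TYK2 (4.43 ± 0.31), IRF1 (1.99 ± 0.16), IRF9 (0.930 ± 0.188) and SOCS1 (0.132 ± 0.050) followed, none overlapping the next. After siFOXA1 in PC3 the order was led by STAT2 at 96.4 ± 8.08 RPKM, with IRF7 at 54.7 ± 14.5 and IRF9 at 49.7 ± 2.62 overlapping each other behind it. IRF1 reached 27.6 ± 0.83 RPKM there, overlapping the ranges of JAK1, TYK2 and IRF3. In VCaP siFOXA1, STAT2 (12.4 ± 0.97 RPKM) and STAT3 (12.2 ± 0.32 RPKM) overlapped at the top.

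**Figure D4:**
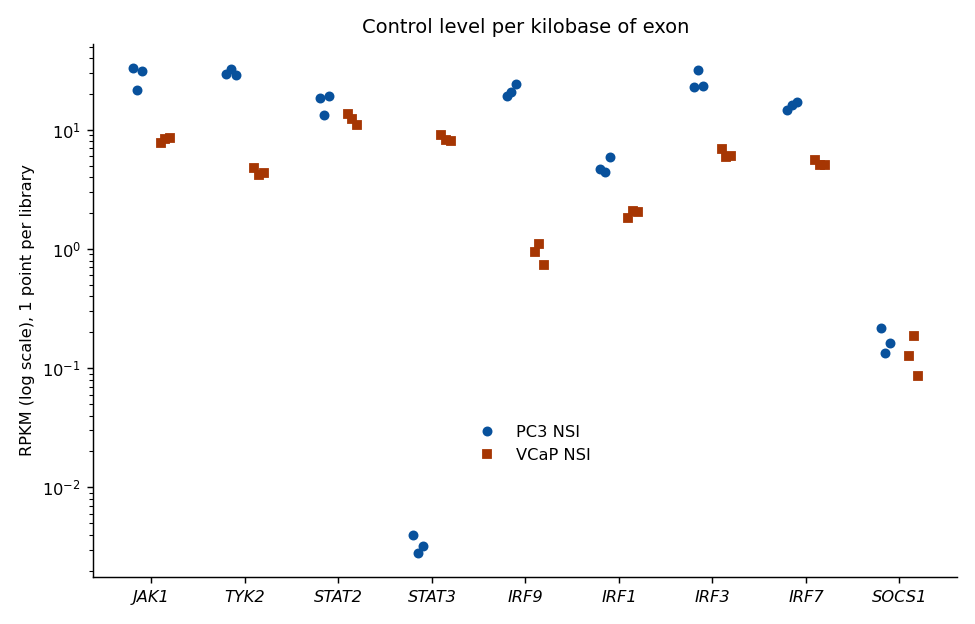
RPKM on a log scale (y axis) of each gene (x axis) in the 3 NSI libraries of PC3 (circles) and VCaP (squares), 1 point per library. STAT3 is at 0.0033 RPKM on average in PC3 and at 8.49 in VCaP, and IRF9 at 21.4 in PC3 and 0.930 in VCaP. The IRF9 values hold only its share of the fragments divided with an overlapping gene.

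Promoter sequence is shown for 3 of the members that rose in PC3, because these stretches hold the letters of a GAS element (IRF1), an ISRE core (SOCS1) or the shorter IRF core (IRF9). RefSeq promoters (GRCh38.p14, 250 bases before to 50 after the start) were found for 7 of the 9 members, all but IRF3 and IRF7. Each line gives the 150 bases before the start, 5′ to 3′ on the gene's strand, with the match in capitals. The IRF1 stretch (chr5:132490774-132490923, minus strand) has a GAS match at −124 to −116, the SOCS1 stretch (chr16:11256205-11256354, minus strand) an ISRE core match at −113 to −105, and the IRF9 stretch (chr14:24161115-24161264, plus strand) an IRF core match at −35 to −28, counted from the start. The IRF9 stretch also holds a GAS match at −63 to −55, left in lower case.
IRF1: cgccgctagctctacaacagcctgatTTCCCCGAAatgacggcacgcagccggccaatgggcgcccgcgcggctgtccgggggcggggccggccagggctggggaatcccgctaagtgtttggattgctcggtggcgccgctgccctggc
SOCS1: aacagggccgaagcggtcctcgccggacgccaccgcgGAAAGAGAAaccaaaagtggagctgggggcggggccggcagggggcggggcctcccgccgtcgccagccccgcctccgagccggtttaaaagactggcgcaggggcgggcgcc
IRF9: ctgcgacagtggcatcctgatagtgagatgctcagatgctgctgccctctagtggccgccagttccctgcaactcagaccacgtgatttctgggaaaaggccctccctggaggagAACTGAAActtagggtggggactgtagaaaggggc

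Matches were sought on both strands. The ISRE core GAAANNGAA was in the promoter of SOCS1 among the 7 members, and in 8.11% of 35116 RefSeq promoters. The GAS letters TTCNNNGAA were in IRF1 and IRF9, and in 7.66% of all promoters. The shorter IRF core AANNGAAA, which partly overlaps the ISRE core in SOCS1, was in IRF9, JAK1 and SOCS1, and in 22.8% of all promoters. The forkhead letters TGTTTAC were in none of the 7 and in 3.42% of all promoters. STAT2, which rose in PC3, held none of the 4 in this window, and JAK1, which was not called in PC3, held an IRF core. These matches describe letters in a window and no binding was measured.

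Lists of related genes are read against the shares over all genes, which were 15.0% higher and 12.1% lower in PC3 and 22.5% higher and 23.3% lower in VCaP. No test compared the lists with each other or with other genes. All 28 ISGF3 targets tested rose in PC3, with a median log2 fold change of 3.38, and those with the smallest p were IFI44 (2.95), HERC5 (2.62) and OASL (2.55). In VCaP 12 of 22 rose and 6 fell, with a median of 0.68. OAS1 (1.55), IFIT2 (1.32) and IFIT3 (1.48), which act against viral RNA, rose in VCaP, while HERC5 (−1.65), HERC6 (−0.90) and OAS3 (−0.51) fell. The response was more negative in VCaP for 22 of 28, where 11.0% of all genes tested were called in that direction. The 6 not called had too few VCaP counts to be tested in that line. Many of these targets had been seen to move in earlier results of these data, so the list gives no independent evidence of direction.

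Targets of IRF1 and interferon gamma rose in PC3 in 19 of 20 cases, with a median of 2.69. IDO1 (4.32), which degrades tryptophan, and the GTPases GBP2 (3.37) and GBP1 (3.80) had the smallest p. In VCaP 6 of 15 rose and 6 fell. There, the chemokine genes CXCL10 (3.49) and CXCL11 (2.52) and the class II regulator CIITA (2.72) rose, and TAP2 (−1.30), TAP1 (−0.70) and PSMB8 (−0.77), which serve class I peptide loading, fell. CIITA was the 1 member of the list that was not called in PC3 (0.11, adjusted p 0.64).

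Of the genes listed as STAT3 targets, 4 of 18 rose in PC3 and 3 fell, with a median of −0.032. These counts are near the shares over all genes, 15.0% and 12.1%, and nothing is read from them about the list. BCL2L1 (0.63), FOS (1.11) and FGF2 (0.59) rose, and MYC (−1.19), BIRC5 (−0.78) and CCND1 (−0.28) fell. In VCaP 7 of 14 rose and 2 fell, with a median of 0.48. JUNB (1.37), HIF1A (1.03) and the kinase gene PIM1 (1.14) rose there, and BIRC5 (−0.80) and MCL1 (−0.39) fell.

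**Figure D5:**
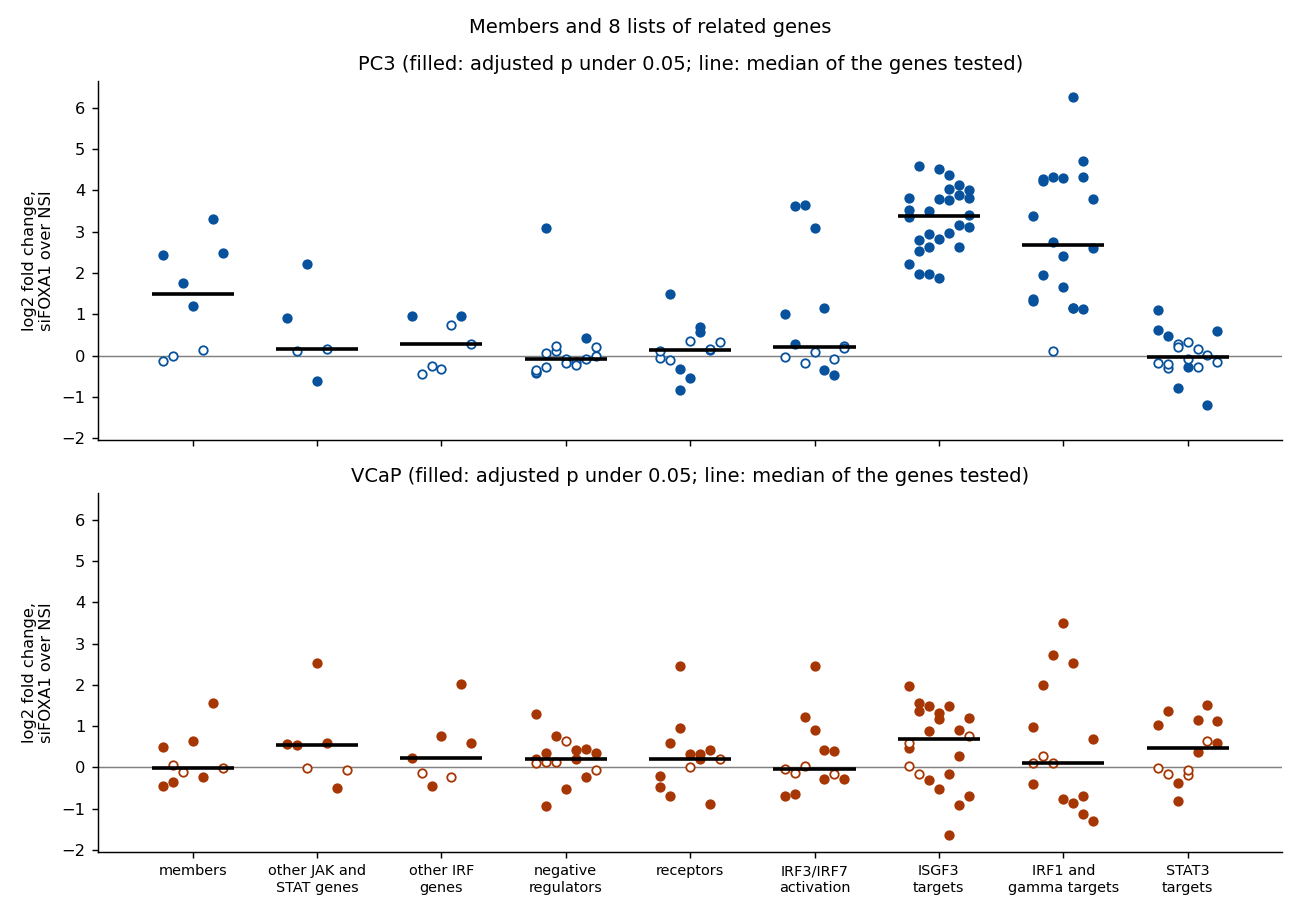
Log2 fold change of siFOXA1 over NSI (y axis) of each gene tested in the members and in 8 related lists (x axis), PC3 above and VCaP below; filled points have an adjusted p under 0.05 and the line is the median. All 28 ISGF3 targets lie above 0 in PC3, with a median of 3.38, and on both sides of 0 in VCaP.

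Upstream of IRF3 and IRF7, 6 of 14 sensor and adaptor genes rose in PC3 and 2 fell, and without PC3 NSI replicate 3 the total called was 5. The RNA sensors IFIH1 (3.66), DDX58 (3.63) and TLR3 (3.09) rose, and TRAF3 (−0.46) and IRAK1 (−0.35) fell. In VCaP 5 of 13 rose and 4 fell. TLR3 (1.22), the DNA-sensing adaptor TMEM173 (2.46) and the kinase gene IKBKE (0.91) rose, and CHUK (−0.70), TICAM1 (−0.65) and MYD88 (−0.27) fell.

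Of 13 receptor genes, 3 rose in PC3 and 3 fell, where 15.0% and 12.1% of all genes did, and without PC3 siFOXA1 replicate 3 only 3 were called in all. IL4R (1.50), LIFR (0.70) and IFNLR1 (0.56) rose, while IL6R (−0.83) and the interferon gamma receptor genes IFNGR2 (−0.55) and IFNGR1 (−0.32) fell. In VCaP 7 of 13 rose and 4 fell. IL6R (2.47), the binding chain that feeds STAT3, had the smallest p there, followed by IFNGR1 (0.95) and IFNAR2 (0.59), while IL4R (−0.69), OSMR (−0.90) and IL13RA1 (−0.48) fell. Of the ligand genes, 4 of 9 tested rose in PC3 and 1 fell. The interferon lambda gene IFNL1 gave 4, 0 and 1 counts in the PC3 NSI libraries and 53, 49 and 61 in siFOXA1 (adjusted p 5.6e-04). The interferon beta gene IFNB1, named after its values were seen, had NSI counts of 0, 2 and 0 and siFOXA1 counts of 15, 13 and 20 (adjusted p 0.0051). Neither had more than 1 count in a VCaP library. IL6 went from 2.07 ± 0.15 to 4.52 ± 0.20 CPM (SD, n = 3) and CTF1 from 2.01 ± 0.34 to 4.30 ± 0.08, while CLCF1 fell (−0.32). In VCaP 2 ligand genes could be tested, and 1, CLCF1, fell (−0.87).

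Among negative regulators in PC3, 2 of 16 rose, USP18 (3.09) and the phosphatase gene PTPN1 (0.44), and PTPN2 fell (−0.42). Neither count is above the share over all genes, 15.0% higher and 12.1% lower. These 3 calls became 9 with the replicate block and 6 without PC3 NSI replicate 2. In VCaP 8 of 16 rose and 3 fell. CISH (1.28), a STAT5-induced inhibitor, PTPN6 (0.36) and SOCS6 (0.35) rose, and USP18 (−0.94), PIAS3 (−0.53) and PTPN1 (−0.24) fell.

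Other JAK and STAT genes gave 2 rises and 1 fall among 5 tested in PC3, where STAT4 fell from 7.43 ± 0.19 to 4.89 ± 0.05 CPM (−0.61). In the fit of all 12 libraries, 5 were called in PC3, but that fit tested 7 of these genes. It added STAT5A (0.077 CPM in PC3 NSI) and STAT5B (0.058 CPM), which had too few counts to be tested in PC3 alone. In VCaP 4 of 7 rose and 1 fell, and 3 were called in all without any one of NSI replicates 2 and 3 or siFOXA1 replicates 2 and 3. There STAT4 (2.52, from 0.187 to 1.10 CPM) and STAT5A (0.59) rose and STAT5B fell (−0.51).

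Other IRF genes and genes of IRF2-binding proteins were counted as 1 list. Of these, IRF2 (0.95) and IRF5 (0.97) rose in PC3 among 7 tested and none fell. These 2 calls became 5 with the replicate block and 4 without PC3 siFOXA1 replicate 2. In VCaP 4 of 7 rose, among them IRF2BPL (0.75) and IRF8 (0.60), and 1 fell. The gene that fell was IRF2BP2 (−0.44), whose product is an IRF2-binding co-repressor and not an IRF.

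Genes whose pattern over the 12 libraries was most like that of each member were found among 16673 protein-coding genes by the root mean square difference of centred log2 CPM. The libraries share line and treatment, so the match is mostly to those contrasts. Closest to STAT2 were HELZ2 (0.23) and APOL2 (0.24), to IRF9 NMI (0.15) and MYOM3 (0.24), to IRF1 TAP1 (0.23) and DDX60 (0.25), to IRF7 TRIM69 (0.23) and B2M (0.23), and to SOCS1 RARRES3 (0.44) and TRANK1 (0.47). JAK1 was closest to RASA1 (0.096) and RHBDD1 (0.13), TYK2 to MVB12A (0.083) and YARS (0.12), IRF3 to GLA (0.068) and CENPT (0.076), and STAT3 to CNTN3 (0.30) and CNTN4 (0.39). By this difference the closest matches were those of IRF3, TYK2 and JAK1, none of which was called in PC3. The difference is not scaled by how much a gene varied. STAT3 varied by an SD of 5.74 log2 units over the 12 libraries and IRF3 by 1.01.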

How the data were processed

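RNA was measured in 12 libraries. The deposited tables hold expected counts per gene, made by the authors with featureCounts v2.0.0 over exons of GENCODE v28lift37 basic on GRCh37, per the file headers. Fragments that mapped to several places or genes were divided, per the file headers, and strand was ignored for PC3 and used (reverse) for VCaP. STAR 2.7.3a and Subread 2.0.0 are named in the submitters' processing notes. Of the nonzero values, 54.8% to 75.2% per library were not whole.

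Counts were rounded and fitted with edgeR 4.0.16 (R 4.3.3): TMM, filterByExpr, quasi-likelihood test, Benjamini-Hochberg adjustment. Each line was fitted alone, NSI libraries together, and the interaction over all 12. SE is the log2 fold change over the square root of F. The fits were run on simulated counts with known changes and the same spread for every gene. Such a run does not measure the error rate in these libraries. Alternatives included DESeq2 1.42.0. Replicates of a group differed beyond sampling noise (chi-square per degree of freedom 9.80 to 141). Same-numbered PC3 libraries deviated together (r 0.52, 0.64 and 0.26 across genes), so their numbers may pair them. The main fits held no replicate block, so the main PC3 p-values leave such a pairing out. With that block 11297 genes were called in PC3, against 7149.

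Named were FOXA1, the members, up to 3 genes per list, line and direction with the smallest adjusted p, and the 2 genes most like each member. Members and the 11 lists were chosen with earlier results of these data known. Some genes of the lists are counted but not reported by name here.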

Additional observations from a re-analysis of the deposited data

Results flagged for a closer look

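The response to siFOXA1 differed between the lines for 5 members by the interaction test over all 12 libraries, given as the VCaP minus the PC3 log2 effect. The difference was −2.48 for STAT2, −2.87 for IRF1, −1.86 for IRF7, −1.72 for SOCS1 and −0.55 for IRF9. IRF1 rose in PC3 and fell in VCaP, STAT2 and IRF7 rose in PC3 and were not called in VCaP, and IRF9 and SOCS1 rose in both, though the VCaP rise of IRF9 was not called with its overlapping gene's counts summed (adjusted p 0.060). The IRF9 and SOCS1 differences were lost without VCaP NSI replicate 2 (adjusted p 0.16 and 0.089 in edgeR's quasi-likelihood test). Line, siRNA dose, medium, library kit, strand counting and depth of knockdown cannot be told apart in these differences. FOXA1 was left at 64.2% of its NSI mean in PC3 and at 16.8% in VCaP.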

How the results depend on the processing

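Of 35 tests of a member, 25 kept their direction and side of the threshold under every alternative run, and 516 of 547 alternative values did so. In PC3, 7149 genes were called, 11297 with the replicate block and 3945 to 7592 with 1 library left out (4602 without NSI replicate 3 and 3945 without siFOXA1 replicate 1), while 5 members were called in each of these. Between NSI libraries 24474 of 28132 genes tested were called, and 14063 in the fit of protein-coding genes alone. That fit tests fewer genes, so these counts do not compare the same set. The interaction called 3 to 5 members with 1 library left out. The ISRE core was in 1 member's promoter and the shorter IRF core in 3. Signs reversed only for differences that were not called. IRF3 in PC3 (−0.0054) became 0.023 with upper-quartile scaling, 0.053 with library size alone, 0.0059 with the replicate block, 0.0035 with protein-coding genes alone and 0.0068 in the fit of all 12 libraries, and ranged from −0.16 to 0.19 with 1 library left out. JAK1 in PC3 ranged from −0.013 to 0.24 with 1 library left out. STAT2 in VCaP (−0.019) became 0.029 with upper-quartile scaling, 0.011 with protein-coding genes alone and 0.013 in the fit of all 12 libraries, and ranged from −0.11 to 0.050 with 1 library left out. The IRF3 interaction became −0.0070 with library size alone and ranged from −0.13 to 0.15 with 1 library left out. The causes were not tested. In VCaP the same-numbered libraries correlated at 0.12, 0.024 and 0.40, against means of −0.019, 0.015 and −0.25 with other numbers. A pairing by number is thus possible in VCaP too, most for replicate 3. The main fits held no block in either line because the labels do not say what a replicate number shares. The block moved no call of a member except that of JAK1 in the interaction, where it also paired the VCaP libraries by number. Depth limits SOCS1 in VCaP, with 9 to 54 counts per library, and STAT3 in PC3, with 1 to 3.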
